A study of Rattus norvegicus with 10 samples.

Results

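The translation machinery of the rat lens capsule was examined through 62 genes out of the 3334 listed genes, which were those whose symbols name translation initiation, elongation and termination factors, poly(A)-binding and La-related proteins, aminoacyl-tRNA synthetases, and proteins of the nucleolus and of rRNA processing. Membership was set by the symbol alone. The genes were compared between the Hypothermia Group, in which the lenses of 5 male Sprague-Dawley (SD) rats stayed in Hibernate-A medium at 4°C for 8 h before the capsules were taken, and the Normal Group of 5 such rats, whose capsules were taken straight after death. All rats were 6 weeks old, and 2 capsules of 1 rat made up each sample. The Normal lenses were not incubated, so cold, storage in medium and time since death cannot be told apart. The lens capsule is the basement membrane of the lens, with epithelial cells on its inner face, and the cells that supplied the RNA were not tested beyond the markers given below. The table held genes that had passed a test of change between these groups, so a member with no difference had little chance to be listed, and translation genes outside the table were not analysed here.

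Translation starts when eIF4E binds the cap of an mRNA, eIF4G and eIF4A join it, and the eIF3-loaded small ribosomal subunit arrives with initiator tRNA carried by eIF2. Elongation factors eEF1 and eEF2 bring in charged tRNAs and move the ribosome, the aminoacyl-tRNA synthetases charge those tRNAs, and eRF1 ends the chain at a stop codon. Ribosomes are built in the nucleolus by rRNA processing factors and small nucleolar ribonucleoproteins (snoRNPs). Lens epithelial cells differentiate into fibre cells, which make crystallins in very large amounts and later lose their nuclei and ribosomes.

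Most of the translation genes were higher in the Hypothermia Group when the counts were scaled by the size factors behind the deposited values. By edgeR's quasi-likelihood test, with p-values adjusted over the number of expressed genes given in the paper and a threshold of 0.05, 43 of the 62 members were called higher, 2 were called lower, and 17 did not pass. Of all 3222 listed genes tested, 52.3% were called higher and 20.5% lower, against 69.4% of the members called higher. The log2FoldChange was above 0 for 95.2% of the members and 63.7% of all listed genes tested. Its median was 0.41 for the members and 0.36 for all listed genes tested, and only 2 members, Sars (1.03) and Nol3 (1.73), exceeded 1. With TMM scaling, which assumes that most listed genes do not change, 17 members were called higher and 3 lower, beside 19.9% and 34.3% of all listed genes. All 62 members passed the filter on low counts.

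The difference in level depended on the scaling. Raw sums also vary with the depth of the whole libraries, which was not analysed here. The 62 members together held 164230 to 184094 raw counts per Hypothermia rat (median 170632) and 148516 to 189306 per Normal rat (median 167424), so the raw sums of the groups overlapped. After division by the size factors, which were 0.744 to 0.980 for the Hypothermia rats and 1.08 to 1.26 for the Normal rats, the sums were 176858 to 229243 and 126597 to 171735 and no longer overlapped. Lens structural genes (crystallins, Mip, Lim2, Bfsp1, Bfsp2 and others, 19 in all) took a share of 58.5% to 70.2% of the listed counts of a Hypothermia rat and 22.3% to 52.3% of those of a Normal rat. Within each group, the rats ranked by their normalized member sum stood in the same order as when ranked by this share, with Hypothermia rat 5 and Normal rat 1 first. Of the listed counts outside these genes, the members took 4.45% to 4.62% and 4.13% to 4.76%. The member sums and shares lean on the most abundant members. Eef1a1 and Eef2 had mean normalized counts of 58343 and 27911 in the Hypothermia Group, where the sums averaged 202191. In the Normal Group the values were 47463, 17889 and 144607. The part of the lens genes in the members' increase was not tested, and in such bulk samples fewer cells of a type and less RNA per cell cannot be told apart.

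A change of scaling shifts all genes nearly alike, so positions relative to the other listed genes are kept by construction. Against the median of all listed genes, the members' median stood 0.05 higher on the log2 scale with the size factors and 0.05 higher with TMM, and 37 members lay above that median and 25 below it. TMM moved the median of all listed genes from 0.36 to 0.07. With the totals of the listed counts as library sizes, that median was -0.87, and 1 member (Nol3) had a positive log2FoldChange. With these totals 50 members were called lower, beside 2398 of all 3223 listed genes tested. The translation genes were spread on both sides of the median of the listed genes.

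**Figure D1:**
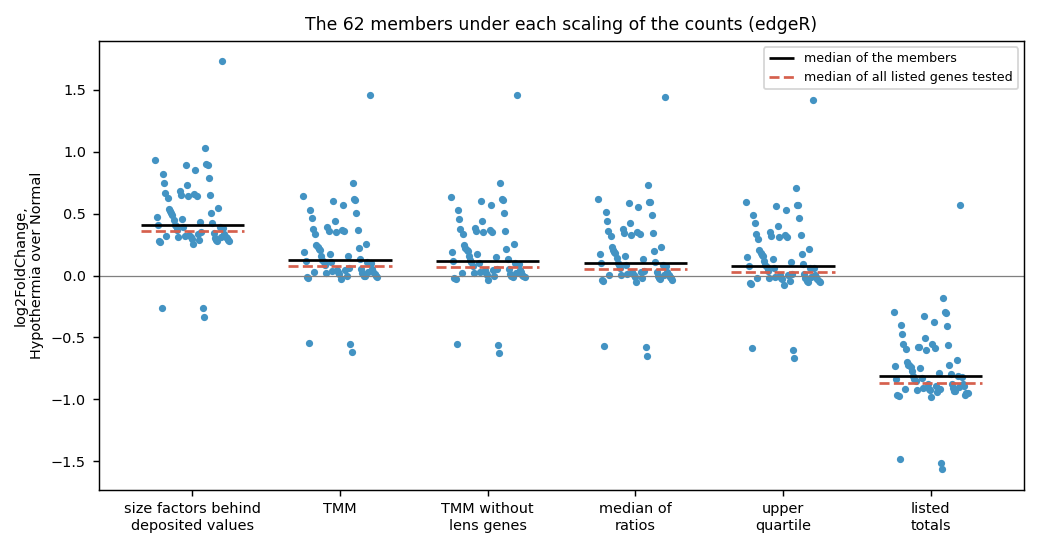
The log2FoldChange (y axis, Hypothermia over Normal) of the 62 members under 6 scalings of the counts (x axis), with 1 point per gene, a black line at the members' median and a dashed line at the median of all listed genes tested. Both medians move together, from 0.41 and 0.36 with the size factors to 0.12 and 0.07 with TMM and -0.81 and -0.87 with listed totals.

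The counts of the listed genes came to 4792595 to 12415121 per rat. Marker genes of the sampled tissue were present: lens fibre markers summed to 265295 to 564539 FPKM in the Hypothermia Group and 43751 to 193711 in the Normal Group for 11 of 11 listed markers. The lens epithelium was represented by 3 of 10 markers (Pax6, Gja1 and Epha2), at 403 to 493 and 535 to 654 FPKM. For pigment epithelium and ciliary body, 5 of 7 markers were listed, at 5.11 to 10.4 and 8.25 to 37.5 FPKM. No marker was listed of the 7 for retinal neurons or of the 6 for blood. The list was selected for change, so an unlisted marker may still be expressed, and the presence of retina or blood was not tested. Of the epithelial markers, Pax6 and Gja1 were lower in the Hypothermia Group without overlap, and Epha2 ran the other way, at 6.85 to 15.5 against 3.76 to 9.40 FPKM. The part of these cells in the results below was not tested.

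In 36 members (58.1%) every Hypothermia rat lay above every Normal rat, beside 41.9% of all listed genes tested, and in 1 member, Vars2, every Hypothermia rat lay below, beside 16.7%. Normal rat 1 was the highest Normal rat for 41 of the 62 members, and Hypothermia rat 2 was the lowest Hypothermia rat for 36. Hypothermia rat 3 was the highest of its group for 33 members and Hypothermia rat 5 for 20, and Normal rat 3 the lowest of its group for 30. In fits that left out 1 rat, 26 to 47 members were called higher. Of 3235 listed genes tested, 1075 were called higher without Normal rat 4, the lowest count, and 1721 without Normal rat 1, the highest. Among the members, 26 called ones, all of them higher, kept the call in every such fit. How many of all listed genes did so was not counted. All 17 members called higher with TMM were among those 26 members.

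**Figure D2:**
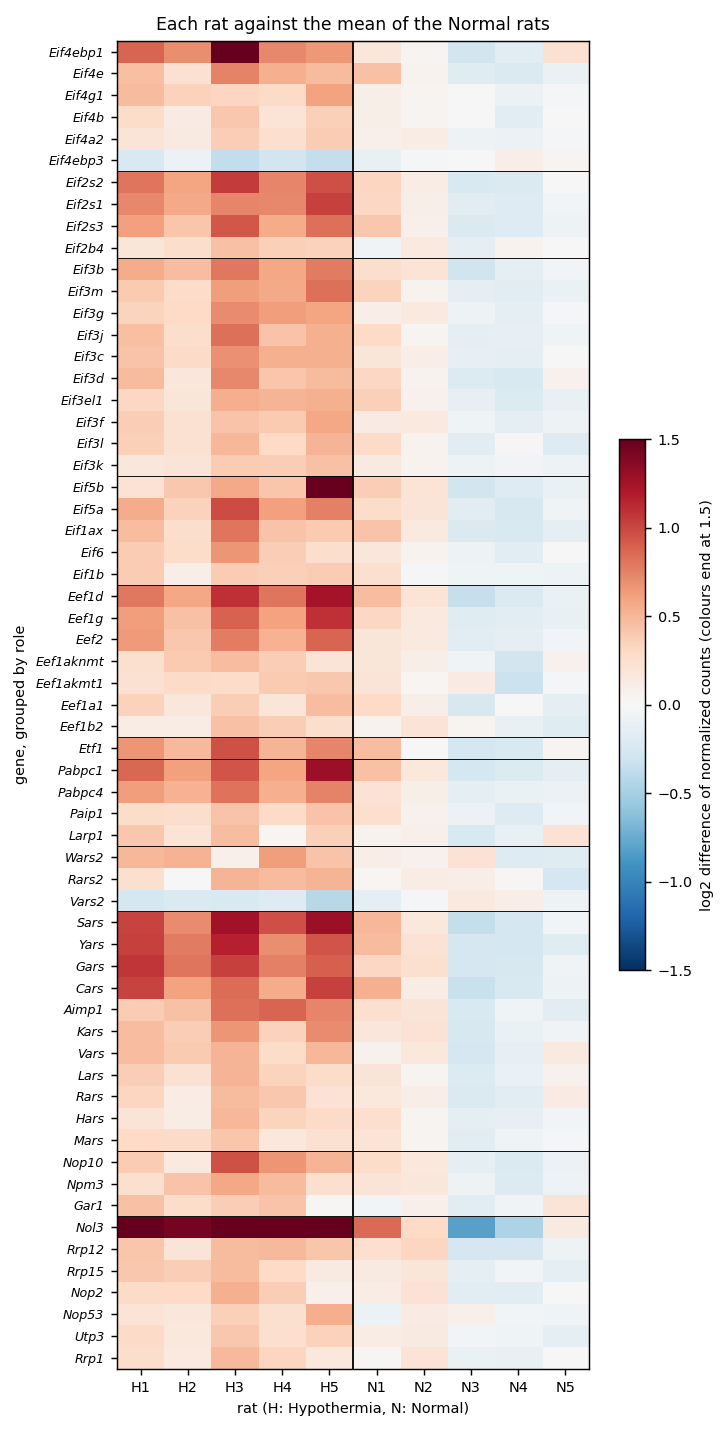
Each cell gives the log2 difference of a member's normalized count in 1 rat (columns, H for Hypothermia and N for Normal) from the mean log2 value of the 5 Normal rats, for 61 genes (rows) ordered by role, with colours ending at 1.5 in each direction. Normal rat 1 is the reddest of the Normal rats and Hypothermia rat 2 the palest of the Hypothermia rats, and Eif4ebp3 and Vars2 are the rows that run the other way.

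The cytosolic aminoacyl-tRNA synthetases, with Aimp1 of the multisynthetase complex, ranged from 0.28 (Mars) to 1.03 (Sars). Of these 11 genes, 9 (81.8%) were called higher with the size factors, beside 52.3% of all listed genes tested. With TMM 4 (36.4%) were called higher, beside 19.9%. In 8 (72.7%) the Hypothermia rats were higher without overlap, beside 41.9%. The median log2FoldChange was 0.51 with the size factors and 0.22 with TMM, and each gene's value was negative with listed totals. Sars (chr2:211219750-211235467 in Rnor_6.0), the seryl-tRNA synthetase, had 2380, 1925, 2834, 2301 and 2909 normalized counts in Hypothermia rats 1 to 5 and 1664, 1316, 922, 989 and 1150 in Normal rats 1 to 5. The lowest Hypothermia rat was above the highest Normal rat, and the log2FoldChange was 1.03 ± 0.17 (SE, adjusted p = 0.00507). Gars (chr4:85235172-85276044), which charges glycine, had 1457, 1212, 1413, 1174 and 1290 normalized counts against 862, 818, 582, 589 and 669. Its groups were far apart, with a log2FoldChange of 0.89 ± 0.12 (adjusted p = 0.00459).

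Yars (chr5:147375350-147403571), the tyrosyl-tRNA synthetase, had 808, 680, 890, 643 and 763 normalized counts in the Hypothermia rats and 553, 461, 333, 332 and 351 in the Normal rats, without overlap, and rose by 0.90 ± 0.15 (adjusted p = 0.00575). Cars (chr1:216759366-216801656), the cysteinyl enzyme, had 1120, 838, 992, 812 and 1123 against 801, 596, 440, 473 and 524, where the lowest Hypothermia rat was barely above Normal rat 1, and rose by 0.79 ± 0.16 (adjusted p = 0.0102). Sars, Gars, Yars and Cars were the 4 synthetases that also passed with TMM, at 0.75, 0.61, 0.62 and 0.51. Aimp1, a scaffold of the multisynthetase complex, rose by 0.65 ± 0.13 (adjusted p = 0.00864), with 352 to 496 normalized counts in the Hypothermia rats and 231 to 322 in the Normal rats.

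The remaining cytosolic synthetases had smaller log2FoldChanges. Kars (lysine) rose by 0.51 ± 0.11 (adjusted p = 0.0118), Vars (valine) by 0.42 ± 0.09 (adjusted p = 0.0132) and Lars (leucine) by 0.34 ± 0.09 (adjusted p = 0.0284, lost in 7 of 10 fits without 1 rat). Mars (methionine) was called at 0.28 ± 0.08 (adjusted p = 0.0494), but the call was lost in 9 of 10 fits without 1 rat, and with TMM its log2FoldChange was -0.01. Rars (arginine, 0.30 ± 0.10) and Hars (histidine, 0.29 ± 0.10) did not pass, with adjusted p-values of 0.0677 and 0.0733. Per length of transcript, Sars had the highest level of this family in both groups, at 75.9 ± 12 FPKM (SD, n = 5) in the Hypothermia Group and 37.1 ± 9.1 in the Normal Group. Next were Kars (45.0 ± 5.3 and 31.6 ± 4.2) and, in the Hypothermia Group, Gars (33.2 ± 3.1, against 17.9 ± 3.3 in the Normal Group), which was below Hars (20.03 ± 2.3) in the Normal Group by less than the spread between rats.

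The mitochondrial synthetases charge the tRNAs of mitochondria and are encoded by nuclear genes. None of the 4 listed was called higher and 1 was called lower, beside 52.3% and 20.5% of all listed genes tested. Their difference from the cytosolic enzymes was not tested. Vars2 (chr20:3588497-3599514), for valine, had 417, 431, 424, 435 and 375 normalized counts in the Hypothermia rats and 450, 492, 553, 533 and 474 in the Normal rats. Every Hypothermia rat was below every Normal rat, and the log2FoldChange was -0.27 ± 0.08 (adjusted p = 0.0433, lost in 9 of 10 fits without 1 rat). With TMM it was -0.55 and passed, and with listed totals it was also negative. Wars2 (tryptophan, 0.43 ± 0.16, adjusted p = 0.101) and Rars2 (arginine, 0.35 ± 0.12, adjusted p = 0.0788) had overlapping groups and did not pass. The cytosolic and mitochondrial valyl enzymes, Vars and Vars2, thus had log2FoldChanges of opposite sign with the size factors and with TMM, where Vars was at 0.14 and did not pass. The arginyl enzymes, Rars and Rars2, had the same sign, at 0.30 and 0.35 with the size factors and 0.02 and 0.06 with TMM. Neither of them passed with either scaling.

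**Figure D3:**
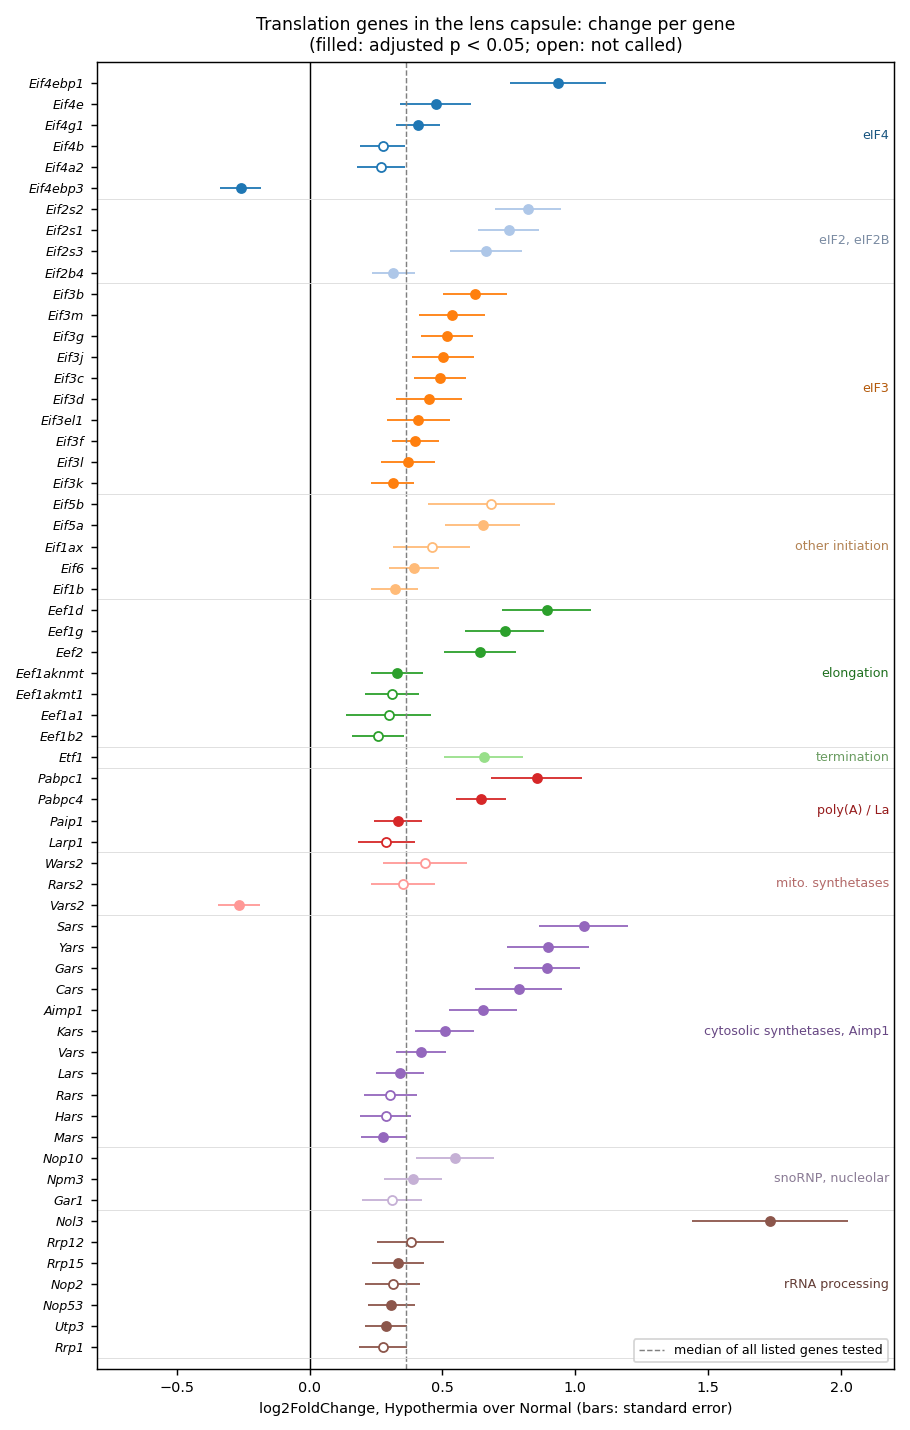
The log2FoldChange (x axis, Hypothermia over Normal, bars give the standard error) of 61 members (y axis), grouped by role, with filled points for adjusted p under 0.05 and a dashed line at the median of all listed genes tested (0.36). Nol3 (1.73) and Sars (1.03) lie farthest to the right, and Eif4ebp3 and Vars2 are the plotted genes left of 0.

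Promoter sequences of 53 of the 62 members were found in RefSeq for the GRCr8 build, each from 250 bases before to 50 after the start, and those without an entry included Eif4ebp1, Eif4b, Eif3el1, Eef1d, Pabpc1, Gars, Rars and Nol3. Synthetase genes are known targets of ATF4, a transcription factor of the amino acid response, which binds the C/EBP-ATF response element (CARE). The letters TGATGCAA or TGATGAAA, on either strand, were found in 6 of the 55 promoter entries of the members (10.9%) and in 1.68% of 21851 promoters of protein-coding genes. The 6 stretches of 30 bases around the match are shown with the match in capitals, read 5′ to 3′ on the strand of the gene. They come from 3 of the 9 cytosolic synthetase and Aimp genes with an entry, 1 of the 4 eIF2 and eIF2B genes, Larp1 and Gar1. Cars has it at chr1:208225334-208225363 (minus strand), Yars at chr5:146820183-146820212 (plus), Mars at chr7:65023752-65023781 (minus), Eif2s2 at chr3:163855588-163855617 (minus), Larp1 at chr10:42691661-42691690 (plus) and Gar1 at chr2:221056748-221056777 (minus).
Cars: cggcgccgcggTTGCATCAgattctggaaa
Yars: cggagctacgagctcagcTGATGCAAcctg
Mars: gcccgttccggTTGCATCAgcgtgggctcc
Eif2s2: ttccctttcgcTGATGCAAgagcctagcgc
Larp1: gcccttcggagTTGCATCAggcacgtgctc
Gar1: gcgctgctattTTGCATCAtttccgccacc

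The match lay 17 bases after the annotated start in Cars and 38 after it in Yars, and 36 before it in Eif2s2, 17 before it in Mars and in Gar1, and 161 before it in Larp1. Of these 6 genes, Yars, Eif2s2 and Cars had log2FoldChanges of 0.90, 0.82 and 0.79, Mars 0.28, and Gar1 and Larp1 were not called. Sars and Lars, at 1.03 and 0.34, had no match in this window. Kars, Vars, Hars, Aimp1, Eif2s1, Eif2s3 and Eif2b4, at 0.29 (Hars) to 0.75 (Eif2s1), had none either. A match of letters is a description of the sequence, and no factor's binding was measured.

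All 4 listed genes of eIF2 and its exchange factor eIF2B were called higher with the size factors and 3 with TMM, and all were negative with listed totals. Over all listed genes tested, 52.3% were called higher with the size factors and 19.9% with TMM, and 41.9% were higher without overlap. eIF2 delivers initiator tRNA to the ribosome, and phosphorylation of its alpha subunit slows initiation under stress. Eif2s1 (alpha subunit, chr6:102048372-102073041) had 1162, 1045, 1174, 1164 and 1434 normalized counts in Hypothermia rats 1 to 5 and 878, 748, 629, 616 and 687 in the Normal rats. Eif2s2 (beta subunit, chr3:150391460-150412179), the gene whose promoter stretch is shown above, had 2606, 2246, 3084, 2469 and 2907 against 1864, 1614, 1274, 1287 and 1498. Eif2s3 (gamma subunit, chrX:63268037-63292092) had 2275, 1981, 2819, 2180 and 2625 against 1955, 1564, 1279, 1297 and 1401. In all 3 subunits the groups did not overlap, narrowly so for Eif2s3.

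The log2FoldChanges were 0.75 ± 0.11 for Eif2s1 (adjusted p = 0.00471), 0.82 ± 0.12 for Eif2s2 (adjusted p = 0.00459) and 0.66 ± 0.14 for Eif2s3 (adjusted p = 0.00949), and 0.46, 0.53 and 0.38 with TMM. The 3 subunits form 1 complex, and their changes differed by little more than a standard error. Eif2b4, a subunit of the exchange factor that reloads eIF2 with GTP, was at 0.32 ± 0.08 (adjusted p = 0.0251), with the call lost in 6 of 10 fits without 1 rat.

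Of 6 listed genes of the eIF4 group, 3 were called higher and 1 lower with the size factors. With TMM 1 was called higher and 1 lower, and all 6 were negative with listed totals. The shares of all listed genes tested were 52.3% higher and 20.5% lower with the size factors, and 19.9% and 34.3% with TMM. The group's shares called higher were thus close to those of all listed genes. Eif4ebp1 (chr16:68954875-68968248) encodes 4E-BP1, which holds eIF4E away from eIF4G unless mTORC1 phosphorylates it. It had 370, 326, 598, 334 and 317 normalized counts in the Hypothermia rats and 228, 207, 166, 180 and 237 in the Normal rats. Hypothermia rat 3 was far above the other rats, and the remaining Hypothermia rats still lay above every Normal rat. The log2FoldChange was 0.93 ± 0.18 (adjusted p = 0.00823), at its lowest 0.73 in a fit without 1 rat, and 0.64 with TMM, where it passed.

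The partner of 4E-BP1, the cap-binding protein gene Eif4e, was at 0.47 ± 0.13 (adjusted p = 0.0361), with 1264 to 1798 normalized counts in the Hypothermia rats and 927 to 1460 in the Normal rats. The groups overlapped through Normal rat 1, and the call was lost in 8 of 10 fits without 1 rat. The scaffold gene Eif4g1 had 3536, 3238, 3181, 3118 and 3867 normalized counts against 2719, 2618, 2544, 2392 and 2491, without overlap, and rose by 0.41 ± 0.08 (adjusted p = 0.00951), though at 0.12 it did not pass with TMM. The helicase gene Eif4a2 (0.27 ± 0.09, adjusted p = 0.0718) and its cofactor Eif4b (0.28 ± 0.09, adjusted p = 0.0535) did not pass, and both were at -0.02 with TMM.

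Eif4ebp3, annotated as another 4E-BP, was the only initiation gene called lower. It had 1173, 1293, 1058, 1134 and 1072 normalized counts in the Hypothermia rats and 1273, 1353, 1361, 1465 and 1404 in the Normal rats, which overlapped through Hypothermia rat 2 and Normal rat 1. Its log2FoldChange was -0.26 ± 0.08 (adjusted p = 0.0436, lost in 8 of 10 fits without 1 rat) and -0.54 with TMM, where it passed. The gene model, chr18:29386809-29492718 with 8986 bases of transcript against 831 for Eif4ebp1, is long for a gene of this family. In mammals a read-through transcript joins Eif4ebp3 to its neighbour Ankhd1, so the counts cannot be assigned to 4E-BP3 mRNA alone.

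The 10 listed eIF3 genes encode subunits of the scaffold that loads the small ribosomal subunit. All 10 were called higher with the size factors, beside 52.3% of all listed genes tested. They ranged from 0.31 for Eif3k to 0.62 for Eif3b, with a median of 0.47. With TMM all 10 stayed above 0, with a median of 0.18, but only Eif3b (10%) passed, beside 19.9% of all listed genes tested. With listed totals all were negative. Eif3b (chr12:16285733-16310190), a core subunit, had 3532, 3310, 4163, 3602 and 4115 normalized counts in the Hypothermia rats and 2893, 2779, 1956, 2200 and 2330 in the Normal rats, without overlap, and rose by 0.62 ± 0.12 (adjusted p = 0.0078). Eif3m, Eif3g, Eif3j and Eif3c followed at 0.54 ± 0.12, 0.52 ± 0.10, 0.50 ± 0.12 and 0.49 ± 0.10. With Eif3f (0.40 ± 0.09) and Eif3b, these were the 6 eIF3 genes that kept the call in every fit without 1 rat.

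The other 4 eIF3 genes lost the call in 6 to 8 of 10 such fits. Eif3d stood at 0.45 ± 0.12, Eif3el1 at 0.41 ± 0.12, Eif3l at 0.37 ± 0.10 and Eif3k at 0.31 ± 0.08. Eif3el1 is annotated as a gene like Eif3e, and reads from near-identical copies could have been split between them. In 5 of the 10 genes the groups overlapped, and Normal rat 1 was the highest Normal rat in each of those 5. In the other 5 (50%) the Hypothermia rats were higher without overlap, beside 41.9% of all listed genes tested. Per length, Eif3f was the most abundant listed subunit, at 94.5 ± 8.2 FPKM (SD, n = 5) in the Hypothermia Group and 71.7 ± 6.5 in the Normal Group.

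Of 5 other initiation factors, 3 were called higher with the size factors and 1 (Eif5a) with TMM, and all were negative with listed totals. In 2 of the 5 the Hypothermia rats were higher without overlap. These shares were close to those of all listed genes tested, which were 52.3%, 19.9% and 41.9% in the same order. Eif5a (chr10:56527085-56531483) encodes the hypusine-containing factor that helps ribosomes through difficult stretches. It had 7156, 6200, 9595, 7479 and 8269 normalized counts against 5894, 5568, 4336, 4114 and 4720, and rose by 0.65 ± 0.14 (adjusted p = 0.0118), the groups lying close together at Hypothermia rat 2 and Normal rat 1. Eif6, which keeps the large subunit from joining too early, was at 0.39 ± 0.09 (adjusted p = 0.0175), and Eif1b, a start-codon selection factor, at 0.32 ± 0.09 (adjusted p = 0.0314), where the groups of Eif1b overlapped and its call was lost in 8 of 10 fits without 1 rat. Eif1ax, which scans with eIF1, was at 0.46 ± 0.14 (adjusted p = 0.0544).

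Eif5b, the GTPase that joins the subunits, had a log2FoldChange whose size depended on a single rat. It had 3434, 3931, 4410, 3960 and 8433 normalized counts in the Hypothermia rats and 3826, 3403, 2446, 2599 and 2763 in the Normal rats, so Hypothermia rat 5 stood far above the others, whose groups overlapped. The log2FoldChange of 0.68 ± 0.24 did not pass (adjusted p = 0.0889), and without Hypothermia rat 5 it was 0.39 ± 0.14 (adjusted p = 0.122).

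**Figure D4:**
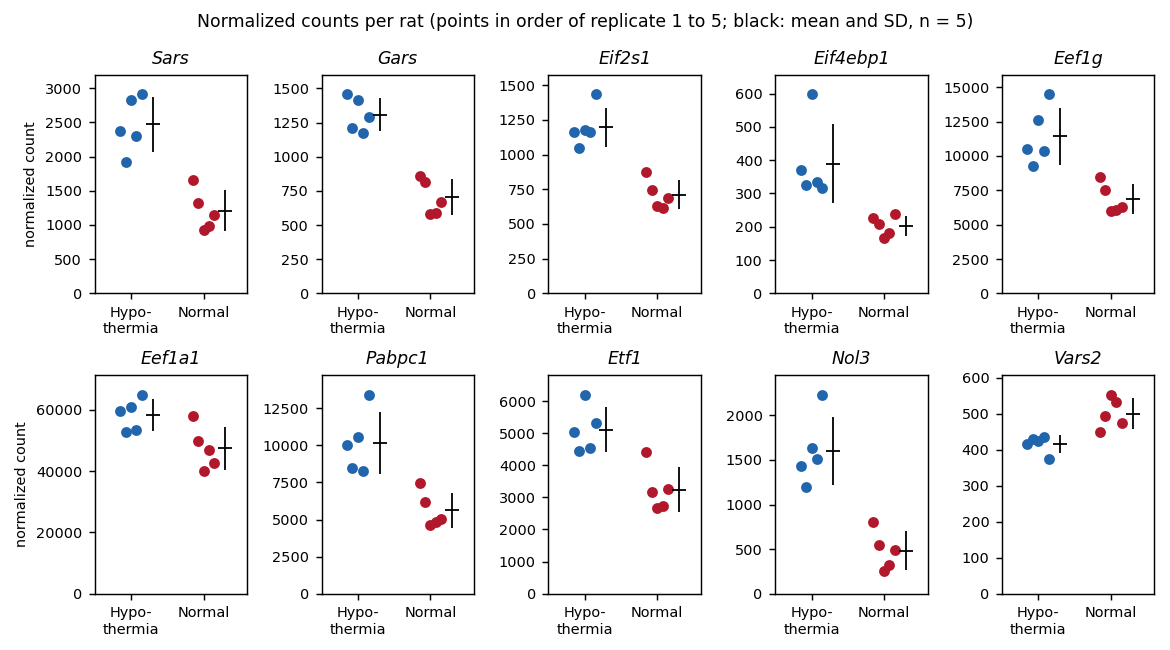
Normalized counts (y axes, linear and starting at 0) of 10 members in the 5 Hypothermia rats (blue) and the 5 Normal rats (red), with the mean and SD of each group in black. Sars, Gars, Eif2s1, Eif4ebp1, Eef1g, Pabpc1, Etf1 and Nol3 have Hypothermia rats above every Normal rat, Vars2 the reverse, and the groups of Eef1a1 overlap.

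Of the 7 listed elongation genes, 4 (57.1%) were called higher with the size factors, close to the 52.3% of all listed genes. With TMM 3 (42.9%) were called higher, beside 19.9%, and all were negative with listed totals. Eef1a1 (chr8:85838869-85840818), the carrier of charged tRNAs, was the most abundant member by far, at 2524 ± 223 FPKM (SD, n = 5) in the Hypothermia Group and 2053 ± 301 in the Normal Group. It had 59714, 52777, 60808, 53485 and 64934 normalized counts against 57887, 49839, 39958, 46972 and 42659. The groups overlapped, and the log2FoldChange of 0.30 ± 0.16 did not pass (adjusted p = 0.462). Genomes carry near-identical copies of this gene, so its count is uncertain where reads map to several of them.

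The exchange factor of eEF1A has 3 subunit genes in the table. Eef1g (chr1:225163391-225173995), its gamma subunit, had 10482, 9257, 12582, 10330 and 14472 normalized counts against 8447, 7543, 5994, 6040 and 6297, and rose by 0.73 ± 0.15 (adjusted p = 0.00938). Eef1d (chr7:116928265-116936674), the delta subunit, had 1671, 1450, 2064, 1685 and 2299 against 1328, 1115, 761, 830 and 904, and rose by 0.89 ± 0.17 (adjusted p = 0.00745). In both the groups did not overlap, and both passed with TMM, at 0.44 and 0.61. The beta subunit gene Eef1b2 had 1967, 1967, 2459, 2352 and 2174 normalized counts against 1885, 2089, 1873, 1681 and 1601, its groups overlapped, and its log2FoldChange of 0.26 ± 0.10 did not pass (adjusted p = 0.115).

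Eef2 (chr7:11401501-11406771), the translocase, had 27661, 23613, 30258, 25526 and 32496 normalized counts in the Hypothermia rats and 20225, 19703, 15960, 16222 and 17332 in the Normal rats, without overlap. Its log2FoldChange was 0.64 ± 0.14 (adjusted p = 0.0104), and 0.35 with TMM, where it passed. Of the genes for methyltransferases that act on eEF1A, Eef1aknmt was called at 0.33 ± 0.10 (adjusted p = 0.0432, lost in 8 of 10 fits without 1 rat) and Eef1akmt1 was not, at 0.31 ± 0.10 (adjusted p = 0.0642). Eef1aknmt was annotated as a processed transcript.

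The stop codon and poly(A) tail factors included 3 genes that passed under both scalings. Over all listed genes tested, 52.3% were called higher with the size factors and 19.9% with TMM. Etf1 (chr18:27698695-27725694) encodes eRF1, which recognises the stop codon. It had 5042, 4455, 6199, 4554 and 5308 normalized counts against 4409, 3165, 2661, 2717 and 3275, and rose by 0.66 ± 0.15 (adjusted p = 0.0138), with the lowest Hypothermia rat only just above Normal rat 1. Pabpc1 (chr7:75409581-75422268), the main cytoplasmic poly(A)-binding protein gene, had 10051, 8477, 10580, 8291 and 13420 against 7485, 6174, 4616, 4802 and 5007, without overlap, and rose by 0.86 ± 0.17 (adjusted p = 0.00915). Pabpc4 (chr5:140979435-140994732), its relative, had 2121, 1980, 2420, 1994 and 2309 against 1607, 1468, 1259, 1287 and 1300, and rose by 0.65 ± 0.09 (adjusted p = 0.00459).

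With TMM these 3 genes stood at 0.37, 0.57 and 0.36, and with listed totals all were negative. Paip1, whose product binds PABP and eIF4A, was at 0.33 ± 0.09 (adjusted p = 0.0314, lost in 8 of 10 fits without 1 rat). Larp1, which represses mRNAs of ribosomal proteins downstream of mTORC1, was at 0.29 ± 0.11 (adjusted p = 0.109), with overlapping groups.

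Ratios between members within a rat do not depend on the scaling between rats. The following pairs were chosen after their values had been seen, so they are a description with no test. The FPKM ratio of Eef1g to Eef1a1 was 0.194 ± 0.020 (SD, n = 5) in the Hypothermia Group and 0.144 ± 0.0092 in the Normal Group, with 0.175 to 0.222 against 0.128 to 0.151. That of Eef2 to Eef1a1 was 0.213 to 0.238 against 0.164 to 0.193, and that of Eef1d to Eef1b2 was 0.361 to 0.533 against 0.205 to 0.355. Sars stood at 3.21 to 4.71 times the FPKM of Lars in the Hypothermia Group and at 2.07 to 2.83 times in the Normal Group, and Pabpc1 at 8.66 to 12.4 times that of Larp1 against 5.06 to 8.51 times.

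In these 5 ratios the groups did not overlap, which the choice of the pairs had fixed. The ratio of Eif4ebp1 to Eif4e was 0.782 ± 0.15 against 0.584 ± 0.093, and the groups overlapped through Normal rat 5. That of Eif2s1 to Eif2b4 was 3.87 to 5.06 against 2.66 to 4.06, which overlapped through Normal rat 1.

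**Figure D5:**
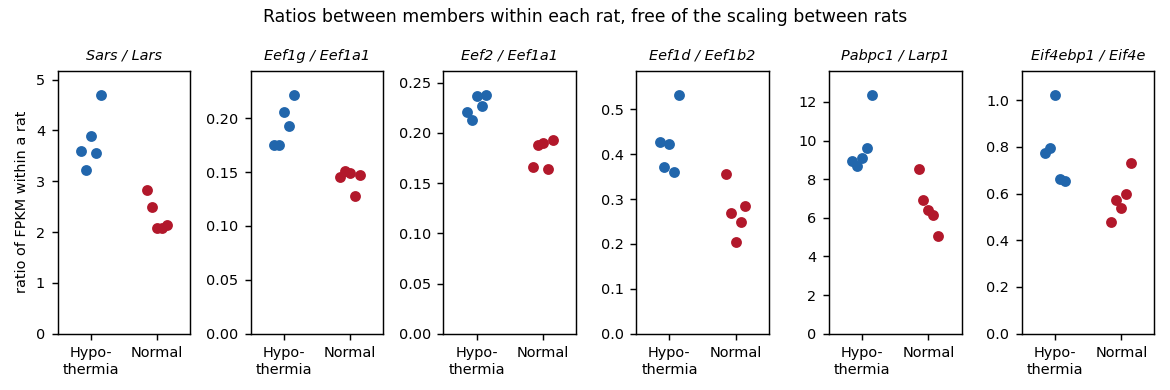
FPKM ratios of 6 pairs of members within each rat (y axes, linear and starting at 0) for the Hypothermia Group (blue) and the Normal Group (red). The groups are apart in 5 pairs, and those of Eif4ebp1 to Eif4e overlap, with Normal rat 5 at 0.730 and Hypothermia rat 5 at 0.655.

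Among the nucleolar proteins and rRNA processing factors, the changes were small apart from Nol3. Of the 3 snoRNP and nucleolar genes, 2 were called higher with the size factors and none with TMM, beside 52.3% and 19.9% of all listed genes tested. All 3 were negative with listed totals. Nop10, a core protein of the H/ACA snoRNPs that guide pseudouridylation, was at 0.55 ± 0.15 (adjusted p = 0.0298), with 525 to 923 against 409 to 574 normalized counts. Its partner Gar1 was at 0.31 ± 0.11 (adjusted p = 0.0975). Npm3, a nucleoplasmin-family chaperone, was at 0.39 ± 0.11 (adjusted p = 0.0329), with no overlap but with the call lost in 6 of 10 fits without 1 rat, as for Nop10.

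Nol3 (chr19:37235001-37236649) had the largest change of all 62 genes. It had 1435, 1200, 1632, 1510 and 2232 normalized counts in the Hypothermia rats and 802, 549, 252, 323 and 487 in the Normal rats. The groups were well apart, the log2FoldChange was 1.73 ± 0.29 (adjusted p = 0.00608), and with TMM it was 1.46 and passed. Despite its symbol, Nol3 is best known for the ARC protein, an inhibitor of apoptosis with a caspase recruitment domain, and it is no ribosome assembly factor. It lies 3089 bases beyond the end of Hsf4 on chromosome 19, a heat shock factor gene of the lens whose log2FoldChange was 2.19. Nol3 was the only member with a positive log2FoldChange when listed totals served as library sizes.

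The other 6 rRNA processing and subunit assembly genes lay between 0.28 and 0.38, close to the median of all listed genes, none passed with TMM, and all were negative with listed totals. With Nol3 included, 57.1% of this role group were called higher with the size factors, close to the 52.3% of all listed genes tested. With TMM 14.3% were called higher, beside 19.9%. Rrp15 (0.33 ± 0.10, adjusted p = 0.0434), Nop53 (0.31 ± 0.09, adjusted p = 0.0388) and Utp3 (0.29 ± 0.08, adjusted p = 0.034) were called higher with the size factors, and each call was lost in 7 or 8 of 10 fits without 1 rat. Rrp12 (0.38 ± 0.13, adjusted p = 0.0694), Nop2 (0.31 ± 0.10, adjusted p = 0.068) and Rrp1 (0.28 ± 0.09, adjusted p = 0.0646) did not pass. Nop53 acts in maturation of the large subunit and Utp3 in that of the small subunit, and Nop2 methylates rRNA.

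Promoters of these genes were searched for the E-box CACGTG, which reads the same on both strands and is bound by MYC, a known activator of ribosome biogenesis genes. It was found in 15 of the 55 promoter entries of the members (27.3%) and in 7.02% of those of all protein-coding genes. Among the rRNA processing genes 4 of the 6 with an entry held it. The stretches of those 4, and that of Eef2 as the most abundant member with a match, are given with the E-box in capitals. They are at chr20:10260552-10260581 (plus strand) for Rrp1, chr1:250655298-250655327 (minus) for Rrp12, chr13:100830769-100830798 (minus) for Rrp15, chr4:159618986-159619015 (plus) for Nop2 and chr7:9189297-9189326 (minus) for Eef2 in GRCr8.
Rrp1: tggcgtgacgcaCACGTGtcgtcactcgag
Rrp12: gctgagaatacaCACGTGggttctgctgtg
Rrp15: ccgttcaggactCACGTGtgaaccccggag
Nop2: tgaactcttccccaagtgCACGTGgagcgg
Eef2: cacccgcgccgtCACGTGacgtgcccaacc

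The E-box was also in the promoters of Eif4e, Eif4g1, Eif3b, Eif3f, Eif5a, Eif1b, Pabpc4, Larp1, Npm3 and Vars. In Larp1 the E-box lies inside the stretch printed above, just after the CARE match, with which it shares no base. The genes with an E-box had log2FoldChanges from 0.28 (Rrp1) to 0.65 (Eif5a), which is inside the range of the members at large. Of the rRNA processing genes shown, Rrp15 was called higher, and Rrp1, Rrp12 and Nop2 were not. Binding by MYC was not measured. The share of promoters with either motif among the listed genes was not counted.

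Genes around the translation machinery that are no members were read from 6 lists. Of 40 genes of mTORC1 signalling, 12 were listed, and 8 were called higher and 2 lower with the size factors, against 1 higher and 4 lower with TMM. With so few genes listed, the counts of each list are to be read beside the 52.3% higher and 20.5% lower over all listed genes with the size factors and the 19.9% and 34.3% with TMM, and nothing particular to a list was tested. Lamtor2, which anchors the pathway to lysosomes, rose by 0.58 ± 0.10 Rragc, a GTPase of the same machinery, by 0.51 ± 0.12, and Rheb, the GTPase that activates mTORC1, by 0.46 ± 0.09, of which Lamtor2 alone passed with TMM. Ddit4, which encodes the mTORC1 inhibitor REDD1, fell with both scalings, at -0.46 ± 0.10 and -0.75, as did Rictor, a subunit of mTORC2, at -0.31 ± 0.09 and -0.60, though the call of Rictor with the size factors was lost in 8 of 10 fits without 1 rat and that of Ddit4 in none. Of 25 genes of the integrated stress response, the pathway that runs through eIF2 phosphorylation and ATF4, 5 were tested, 2 were higher and 1 (Ddit4) lower under both scalings. Asns, the asparagine synthetase and a known ATF4 target, rose by 1.65 ± 0.19 (adjusted p = 0.00459), and Shmt2, the mitochondrial serine hydroxymethyltransferase, by 1.06 ± 0.25 (adjusted p = 0.0177).

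Of 58 other translation and tRNA genes 15 were listed, and 12 were called higher and none lower, against 6 higher with TMM. Ybx3, an mRNA-binding protein gene, was at 1.04 ± 0.16, Tpt1, which encodes the translationally controlled tumour protein, at 0.85 ± 0.19, Dph5, an enzyme of the diphthamide of eEF2, at 0.81 ± 0.19, and Pelo, a ribosome rescue factor, at 0.76 ± 0.14. Of these, Dph5 alone did not pass with TMM. Of 94 other ribosome biogenesis factors 10 were listed, and 7 were called higher with the size factors and 3 with TMM. The largest changes were those of Nsa2 (0.98 ± 0.23) and Rpf2 (0.67 ± 0.15) of the large subunit pathway, Riok3 (0.59 ± 0.11), an atypical kinase, and Exosc5 (0.54 ± 0.09) of the RNA exosome. Nsa2, Riok3 and Exosc5 were the 3 that passed with TMM, and Rpf2 did not. Of 40 genes of RNA polymerases I and III 4 were listed, 2 called higher (among them Gtf3a, 0.43 ± 0.13, lost in 8 of 10 fits without 1 rat) and 1, Gtf3c3, lower (-0.31 ± 0.08, lost in 5), against 0 higher and 1 lower with TMM. The cold-induced RNA-binding protein genes Rbm3 and Cirbp, and 2 more of that list, were not listed and are not analysed here.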

How the data were processed

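RNA from lens capsules of 5 Hypothermia and 5 Normal rats (RIN of at least 5.8) was sequenced as paired-end 150 bp reads. The submitters' processing notes name HISAT2 2.0.5 for alignment, the build Rnor_6.0 and featureCounts 1.5.0-p3 for counting. The deposited counts are whole reads per gene, not normalized. The deposited FPKM were made by the authors from the counts, gene length and size factors. The authors' group means of normalized counts are a signal on the count scale, and the size factors were recovered from them by least squares (largest relative error 9.66e-10). Columns of the authors' own comparison (fold change, p and adjusted p) were left out; DESeq2 1.16.1 is named in the notes. Whether counting used strand is not given in the sources used here.

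The table of 3334 genes was selected by the outcome. The test was that of edgeR 4.0.16 under R 4.3.3 (filterByExpr, glmQLFit with robust = TRUE, glmQLFTest, group only, two-sided). Library sizes were the size factors times 16643015, the constant implied by FPKM. P-values were adjusted by Benjamini and Hochberg over 17005 genes, the expressed genes of the paper, with a threshold of 0.05. The standard error is the log2FoldChange divided by the square root of F. The script was tested on simulated data. Alternatives were other scalings, DESeq2 1.42.0, no filter, a replicate block, other adjustment and leaving out each rat. The listed counts summed to 4792595 to 12415121 per rat, which are not totals of the whole libraries. P-values set the difference between the groups against the spread between rats.

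Members and lists were chosen with earlier results of these data known. Members were named by role group: the 3 highest and 3 lowest called, the most abundant and textbook core genes (54 genes). The other 8 (Eif4b, Eif5b, Eif1ax, Eef1b2, Eef1akmt1, Nop2, Rrp1 and Rrp12) were named after their values were seen. Genes of the lists were those called with the largest changes. Promoters came from RefSeq (GRCr8), with 9 members matched by synonym. Single values of 1 member and of 1 gene of the lists are not reported here, though both enter the counts. Figures used matplotlib 3.10.9.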

Additional observations from a re-analysis of the deposited data

Results flagged for a closer look

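Single rats that stood apart from the others of their group were looked for by Dixon's test in the normalized counts of the 62 members, 124 groups of 5 rats in all, where chance alone flags about 1 group in 20. It picked out 7 values, each given with the gap to the nearest rat as a share of the group's range. Eif1b had its lowest Hypothermia value in rat 2 (435 against 523 in the next rat, a gap share of 0.917) and its highest Normal value in rat 1 (478 against 400, 0.834). Hypothermia rat 3 was the highest for Eif4ebp1 (598 against 370, 0.811) and for Eif6 (1451 against 1202, 0.721). Hypothermia rat 5 was the highest for Eif5b (8433 against 4410, 0.805). Hypothermia rat 2 was the lowest for Rrp12 (300.03 against 352, 0.748). Normal rat 5 was the lowest for Rars2 (152 against 183, 0.716). Without Hypothermia rat 3 the log2FoldChange of Eif4ebp1 was 0.73 (adjusted p = 0.0127) and that of Eif6 0.32 (adjusted p = 0.0353).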

How the results depend on the processing

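The direction and the calls depended on the scaling. With TMM 17 members were called higher and the median log2FoldChange was 0.12, with median-of-ratios factors 16 and 0.10, with upper-quartile factors 14 and 0.080, and with TMM computed without the lens structural genes 17 and 0.12, and in each of these 3 members were called lower. Of 3223 listed genes tested, 641, 611, 540 and 644 were called higher in the same order, and 1104, 1106, 1113 and 1103 lower. With TMM adjusted over the tested genes alone, 23 members were called higher, beside 1039 of all 3223. With totals of the listed counts 1 member was called higher, 50 were called lower and the median was -0.81. Of 3223 listed genes tested, 57 were called higher and 2398 lower with these totals. All but the totals assume a stable majority among the genes used, and these genes were selected for change. With TMM, on either adjustment, the log2FoldChange turned negative for Eef1b2 -0.031, Eif4a2 -0.022, Eif4b -0.015, Hars -0.00046, Mars -0.0062, Rrp1 -0.012 and Utp3 -0.0011. With TMM computed without the lens structural genes it did so for Eef1b2 -0.035, Eif4a2 -0.026, Eif4b -0.020, Hars -0.0038, Larp1 -0.0050, Mars -0.010, Rrp1 -0.016 and Utp3 -0.0050. With median-of-ratios factors it did so for Eef1a1 -0.0083, Eef1b2 -0.054, Eif4a2 -0.044, Eif4b -0.037, Hars -0.022, Larp1 -0.023, Mars -0.028, Nop53 -0.010, Rars -0.0036, Rrp1 -0.035 and Utp3 -0.023. With upper-quartile factors it did so for Eef1a1 -0.031, Eef1akmt1 -0.017, Eef1b2 -0.075, Eif1b -0.010, Eif2b4 -0.017, Eif3k -0.019, Eif4a2 -0.065, Eif4b -0.059, Gar1 -0.015, Hars -0.043, Larp1 -0.043, Mars -0.050, Nop2 -0.012, Nop53 -0.031, Rars -0.023, Rrp1 -0.055 and Utp3 -0.045. With totals of the listed counts it did so for 58 members, Aimp1 -0.56, Cars -0.41, Eef1a1 -0.92, Eef1akmt1 -0.92, Eef1aknmt -0.87, Eef1b2 -0.98, Eef1d -0.33, Eef1g -0.51, Eef2 -0.60, Eif1ax -0.74, Eif1b -0.91, Eif2b4 -0.92, Eif2s1 -0.47, Eif2s2 -0.40, Eif2s3 -0.56, Eif3b -0.59, Eif3c -0.74, Eif3d -0.77, Eif3el1 -0.81, Eif3f -0.84, Eif3g -0.72, Eif3j -0.73, Eif3k -0.92, Eif3l -0.85, Eif3m -0.70, Eif4a2 -0.97, Eif4b -0.97, Eif4e -0.73, Eif4ebp1 -0.29, Eif4g1 -0.83, Eif5a -0.58, Eif5b -0.58, Eif6 -0.83, Etf1 -0.55, Gar1 -0.90, Gars -0.30, Hars -0.93, Kars -0.72, Larp1 -0.94, Lars -0.87, Mars -0.93, Nop10 -0.68, Nop2 -0.89, Nop53 -0.96, Npm3 -0.81, Pabpc1 -0.37, Pabpc4 -0.58, Paip1 -0.89, Rars -0.91, Rars2 -0.91, Rrp1 -0.95, Rrp12 -0.82, Rrp15 -0.87, Sars -0.18, Utp3 -0.95, Vars -0.80, Wars2 -0.78 and Yars -0.30.

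The calls also depended on single rats. Without 1 rat, 26 (Normal rat 4) to 47 (Normal rat 1) members were called higher and 0 to 2 lower, with a median log2FoldChange of 0.38 to 0.45 and no change of sign. Of all 3235 listed genes tested, 1075 were called higher without Normal rat 4 and 1721 without Normal rat 1. In the same order, 297 and 664 were called lower. The count of members was 27 without Hypothermia rat 3 or 4 or Normal rat 3 or 5. In those fits 1171 to 1382 of all listed genes tested were called higher. With the replicate number as a block, 14 members were called higher and 0 lower, and the median was 0.41. Of all 3222 listed genes tested, 808 were called higher and 134 lower with this block. Deviations of same-numbered rats correlated at -0.17 to 0.23, so the numbers were not taken to pair the rats. Adjustment over the tested genes alone (58 higher, 3 lower), DESeq2 (49 and 2), no filter on low counts and no robust dispersion (43 and 2 each) changed no direction. Over all listed genes these gave 2052 higher and 1169 lower, 1917 and 929, 1723 and 696, and 1696 and 670 in the same order. The genes tested were 3334 without the filter and 3222 in the others. The depth of the whole libraries was not analysed here, and genes outside the list were not tested, so the shares cannot be carried over to all translation genes.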
